A study of Homo sapiens with 8 samples.

Results

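CASP2, CASP6, CASP8, CASP9, TNFRSF10A, TNFRSF10B, FAS and CFLAR are 4 caspases, 3 death receptors and an inhibitor of the receptor arm, and were examined as a set. They were taken by gene symbol from the 22428 genes that had a named probe on the array. Where a gene had several probes, the brightest on average over the 8 arrays represented it, and the others are described beside it. RNA was measured in OVSAHO and KURAMOCHI, established human ovarian cancer cell lines, after culture with simvastatin or with L-778123, on 2 one-color arrays for each of the 4 groups. Simvastatin inhibits HMG-CoA reductase, the enzyme that supplies the mevalonate pathway, and L-778123 inhibits the farnesyl and geranylgeranyl transferases that attach products of that pathway to proteins. The comparison of the drugs asked which transcripts respond to a statin beyond blocked protein prenylation. All 8 arrays came from drug-treated cells, so a level that was higher with simvastatin and a level that was lower with L-778123 cannot be told apart. The concentrations and times used for these arrays are not given in the sources used here.

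Caspases are proteases that cut their targets after aspartate and dismantle a cell in apoptosis. In the receptor arm, TRAIL receptors (TNFRSF10A, also DR4, and TNFRSF10B, also DR5) and FAS bind their ligands on the cell surface and recruit the adaptor FADD, which gathers and activates the initiator caspase CASP8. CFLAR encodes FLIP, a relative of CASP8 that joins the same complex and restrains it. In the mitochondrial arm, cytochrome c binds APAF1 and activates the initiator CASP9. CASP6 is an executioner caspase, and CASP2 is an initiator linked to the PIDD1 complex and to stress and DNA damage. Caspases are made as inactive precursors, so a transcript level does not measure their activity.

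Each array's log2 signal was set relative to its own 75th percentile, so that 0 is the level of a bright probe and a difference of 1 is 2-fold. Of the 58162 probes with a spot on every array, 51.8% to 57.5% were well above background on an array, and none of the spots was saturated. The arrays of a group correlated at r = 0.995 to 0.996 over the 33753 probes tested, with a median absolute difference of 0.096 to 0.11 on the log2 scale. All 8 arrays were on 1 slide, the lines on different rows and the drugs at different positions of a row, so that place on the slide and group cannot be told apart. The labels do not say that the 2 arrays of a group came from separate cultures, so the p-values measure only the spread between these arrays, which may be technical. All 14 markers of serous ovarian carcinoma, PAX8, WT1 and EPCAM among them, were well above background on 8 arrays. Of 14 markers of leukocytes, endothelium and fibroblasts, 5 were well above background on every array and 5 on none, PTPRC and CD14 among the former and PECAM1 and DCN among the latter.

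At the representative probes, most of these genes had close levels with simvastatin and L-778123, and CASP2 and FAS differed in both lines. The dimmer CASP2 probe had no drug contrast with an adjusted p under 0.05 in either line. The dimmest CFLAR probe had one in both, with simvastatin higher. In OVSAHO every CFLAR probe except the brightest passed as higher with simvastatin, by log2 fold changes of 0.60 to 1.1. In OVSAHO, CASP2 and FAS were lower with simvastatin than with L-778123 and CASP9 was higher, by 1.93-, 1.70- and 1.21-fold. In KURAMOCHI, CASP2, FAS and CFLAR were lower with simvastatin, by 1.42-, 1.46- and 1.23-fold. The CFLAR value holds for its representative probe only, since its dimmest probe was 1.25-fold higher with simvastatin there. At an adjusted p under 0.05 in limma, 1 of the 8 genes was higher and 2 were lower in OVSAHO, where 53.9% of all 16942 genes tested passed, 26.5% higher and 27.5% lower. In KURAMOCHI 0 were higher and 3 lower, where 35.4% of genes passed, 17.1% higher and 18.4% lower, and at an unadjusted p under 0.05 the counts were 0 higher and 4 lower. None of the 8 representative probes reached 2-fold with an adjusted p under 0.05, against 11.6% of genes in OVSAHO and 5.36% in KURAMOCHI. The share of the set that passed was 37.5% in each line, under that of all genes in OVSAHO and near it in KURAMOCHI. Leaving out TNFRSF10A, which was not well above background in OVSAHO, the median log2 fold change of the other 7 genes was -0.03 in OVSAHO and -0.28 in KURAMOCHI, beside 0.01 in both lines over all genes tested.

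**Figure D1:**
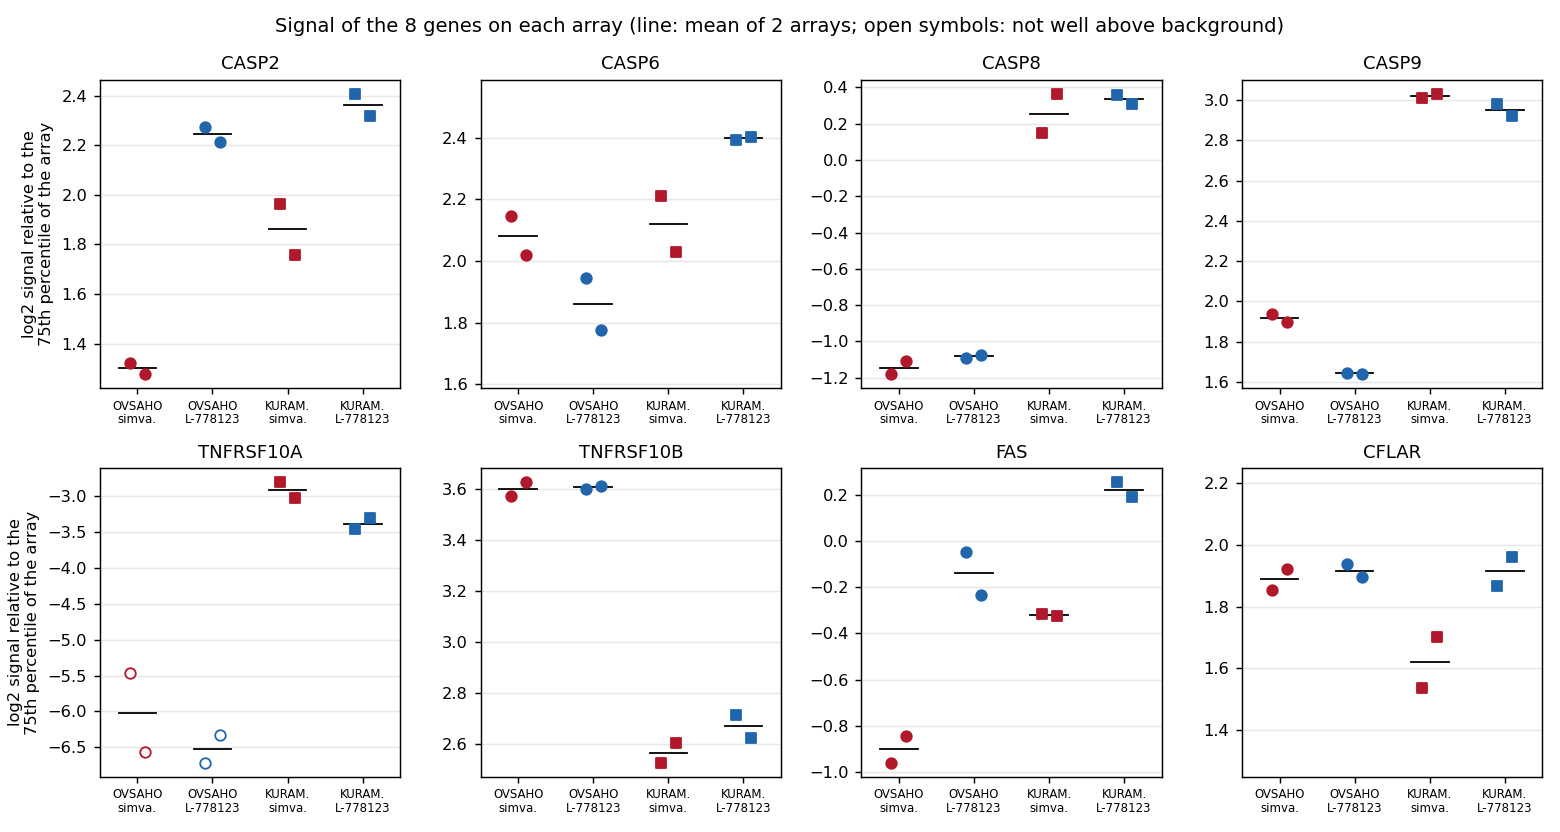
Log2 signal relative to the 75th percentile of the array (vertical axis, its own range in each panel) for the representative probe of each of the 8 genes in the 4 groups. Each point is 1 array, the line is the mean of 2 arrays, and open symbols were not well above background. CASP2 and FAS sit lower with simvastatin (red) in both lines, CASP8 and CASP9 sit lower in OVSAHO (circles) with both drugs, and TNFRSF10B sits higher there.

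CASP2 and FAS were the genes with a drug contrast in both lines at the representative probe, and their promoters are shown for that reason. They are the first windows listed for these genes by RefSeq on GRCh38.p14, each of 300 bases from 250 before the transcription start, read 5′ to 3′ on the plus strand, at chr7:143288101-143288400 for CASP2 and chr10:88990548-88990847 for FAS. Capitals mark matches, on either strand, to the motifs searched.
CASP2: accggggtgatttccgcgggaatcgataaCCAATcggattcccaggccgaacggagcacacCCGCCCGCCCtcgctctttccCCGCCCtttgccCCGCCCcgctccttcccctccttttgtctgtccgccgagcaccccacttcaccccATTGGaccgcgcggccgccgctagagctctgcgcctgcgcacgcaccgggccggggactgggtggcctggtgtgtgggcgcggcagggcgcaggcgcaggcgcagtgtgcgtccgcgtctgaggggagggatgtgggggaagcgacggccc
FAS: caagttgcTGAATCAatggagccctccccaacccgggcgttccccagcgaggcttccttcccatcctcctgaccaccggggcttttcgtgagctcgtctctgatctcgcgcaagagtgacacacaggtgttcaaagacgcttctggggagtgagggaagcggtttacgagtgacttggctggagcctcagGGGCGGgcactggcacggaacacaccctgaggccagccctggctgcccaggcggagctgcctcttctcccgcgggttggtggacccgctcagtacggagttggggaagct
The motifs were GGGCGG, which is the GC box, TATAAA, which is the TATA box, and the CCAAT box. TGANTCA was a loosened form of the AP-1 motif that allowed any base in the middle. The rest were TTTGGCGC and TTTCCCGC for E2F, TTCNNNGAA for STAT, TGATGCAA for the composite of CHOP and ATF4, and the NF-kB motif. The CASP2 window held 4 matches to GGGCGG, all on the minus strand with 1 pair of them overlapping, and 2 matches to CCAAT. The FAS window held 1 match to GGGCGG and 1 to TGANTCA. The latter reads TGAATCA, with A in the middle, so it matches the loosened pattern only and is not shown to be an AP-1 site. Of 35116 promoter windows of this length, 45.0% held GGGCGG, 34.6% CCAAT and 7.71% TGANTCA. None of the other motifs was matched in either window, which says only that those letters are not there. G and C made up 71.3% of the CASP2 window and 63.0% of the FAS window, beside a median of 58.7%.

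CASP2 showed the largest drug contrast of the 8 representative probes in OVSAHO. On the log2 scale its signal was 1.32 and 1.28 on the OVSAHO simvastatin arrays and 2.28 and 2.22 on the OVSAHO L-778123 arrays. In KURAMOCHI it was 1.97 and 1.76 with simvastatin and 2.41 and 2.32 with L-778123. The simvastatin arrays lay below the L-778123 arrays of their line in both cases, without overlap. The log2 fold change of simvastatin over L-778123 was -0.95 ± 0.086 in OVSAHO (SE, limma, adjusted p = 0.000535) and -0.50 ± 0.086 in KURAMOCHI (adjusted p = 0.00902). The difference between these contrasts was -0.44 ± 0.12, with a 95% interval of -0.74 to -0.14, and did not pass (adjusted p = 0.0512). With the replicate number as a block its adjusted p was 0.042, though equal replicate numbers did not pair the arrays. The difference was -0.16 with the median over both CASP2 probes. At the dimmer probe it had the other sign and did not pass (0.12, adjusted p = 0.696). In KURAMOCHI, the adjusted p was 0.052 without the first L-778123 array and 0.0773 with the methods' two-way analysis of variance and Tukey's test. In whole cultures, fewer cells with a transcript and less of it per cell cannot be told apart.

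CASP2 has a second, dimmer probe on the array, and there the drugs were not separated. It gave -0.53 and -0.63 with simvastatin and -0.66 and -0.29 with L-778123 in OVSAHO, so that these groups overlapped. Its log2 fold change was -0.11 ± 0.13 in OVSAHO (adjusted p = 0.535) and -0.22 ± 0.13 in KURAMOCHI (adjusted p = 0.251). The files list the same transcript for both CASP2 probes. The median over both probes gave -0.53 in OVSAHO. The CASP2 result therefore rests on 1 of its 2 probes, and the interval of the dimmer probe in OVSAHO, -0.44 to 0.22, does not reach the value of the brighter one.

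FAS, the receptor of FAS ligand, was lower with simvastatin in both lines at all 3 of its probes. The brightest probe gave -0.96 and -0.85 on the OVSAHO simvastatin arrays and -0.04 and -0.23 on the OVSAHO L-778123 arrays. In KURAMOCHI it gave -0.32 on both simvastatin arrays, and 0.26 and 0.19 with L-778123. Within each line the drugs did not overlap. The log2 fold change was -0.76 ± 0.084 in OVSAHO (adjusted p = 0.00105) and -0.54 ± 0.084 in KURAMOCHI (adjusted p = 0.00659). The other FAS probes gave -0.91 and -0.99 in OVSAHO (adjusted p = 0.00066 and 0.0023) and -0.48 and -0.64 in KURAMOCHI (adjusted p = 0.0112 and 0.0185). In KURAMOCHI the first of these did not pass in 2 and the second in 4 of the 8 fits that left out 1 array, with adjusted p up to 0.0602 and 0.0883. With normexp background correction and quantile normalization the dimmest probe gave -0.31 in OVSAHO and -0.29 in KURAMOCHI. The drug contrast of the brightest probe differed between the lines by -0.22 ± 0.12, which did not pass (adjusted p = 0.239, 95% interval -0.52 to 0.073). With the analysis of variance and Tukey's test, the adjusted p of that probe in KURAMOCHI was 0.0612.

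**Figure D2:**
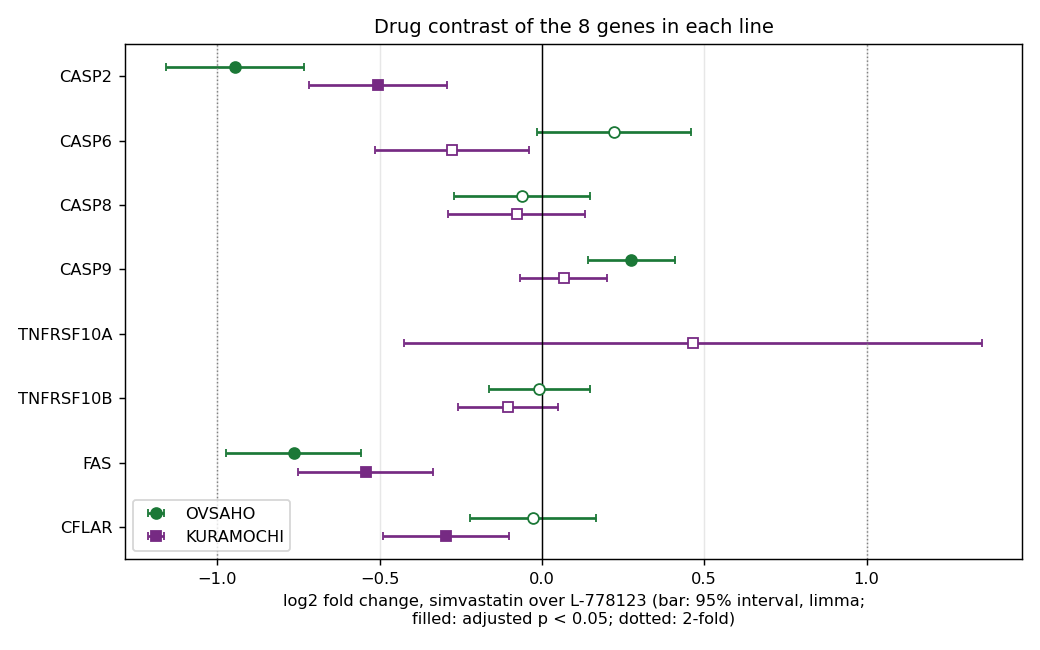
Log2 fold change of simvastatin over L-778123 (horizontal axis) for the 8 genes, at the representative probe, in OVSAHO (green circles) and KURAMOCHI (purple squares). Bars are 95% intervals from limma, filled symbols have an adjusted p under 0.05 and dotted lines mark 2-fold. CASP2 and FAS are lower with simvastatin in both lines, and TNFRSF10A has no value in OVSAHO, where it was not well above background.

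The TRAIL receptors showed no passing drug contrast. TNFRSF10B gave 3.57 and 3.63 with simvastatin and 3.60 and 3.61 with L-778123 in OVSAHO. In KURAMOCHI it gave 2.53 and 2.60 with simvastatin and 2.71 and 2.62 with L-778123. Its log2 fold change was -0.01 in OVSAHO (adjusted p = 0.931), with a 95% interval of -0.16 to 0.15, and -0.10 in KURAMOCHI (adjusted p = 0.253), with an interval of -0.26 to 0.05. TNFRSF10A was well above background on the 4 KURAMOCHI arrays alone, at -2.81 and -3.02 with simvastatin and -3.46 and -3.30 with L-778123. Those values did not overlap, but the log2 fold change of 0.46 ± 0.36 did not pass (adjusted p = 0.372), and its interval ran from -0.43 to 1.35. The SE pools all 4 groups, with SDs of 0.78 and 0.28 in OVSAHO, at background, against 0.15 and 0.11 in KURAMOCHI. The test therefore cannot decide whether TNFRSF10A differed between the drugs in KURAMOCHI. No fold change is given for TNFRSF10A between the drugs in OVSAHO.

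CASP8, the caspase that these receptors engage, was also close between the drugs. It gave -1.18 and -1.11 with simvastatin and -1.09 and -1.07 with L-778123 in OVSAHO, and 0.15 and 0.36 against 0.36 and 0.31 in KURAMOCHI, where the drugs overlapped. The intervals of its log2 fold change were -0.27 to 0.15 in OVSAHO (adjusted p = 0.582) and -0.29 to 0.13 in KURAMOCHI (adjusted p = 0.533), so that a change beyond 1.5-fold lies outside both. CASP9, the initiator of the mitochondrial arm, was the sole gene to pass as higher with simvastatin at its representative probe. It gave 1.94 and 1.90 with simvastatin and 1.65 and 1.64 with L-778123 in OVSAHO, without overlap. Its log2 fold change was 0.28 ± 0.054 in OVSAHO (adjusted p = 0.00878) and 0.07 ± 0.054 in KURAMOCHI (adjusted p = 0.394), where the arrays gave 3.01 and 3.03 against 2.98 and 2.92. The difference between the lines was 0.21 and did not pass (adjusted p = 0.109).

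CASP6, an executioner caspase, leaned in opposite directions in the lines, and neither contrast passed on its own. In OVSAHO it gave 2.15 and 2.02 with simvastatin and 1.94 and 1.78 with L-778123, a log2 fold change of 0.22 ± 0.096 (adjusted p = 0.106). In KURAMOCHI it gave 2.21 and 2.03 with simvastatin and 2.39 and 2.40 with L-778123, a log2 fold change of -0.28 ± 0.096 (adjusted p = 0.078). The difference between the contrasts was 0.50 ± 0.14, with an adjusted p of 0.0493. It was the sole representative probe of the 8 to pass this test of the difference, which 27.4% of all genes passed. Its adjusted p lay between 0.0566 and 0.132 when any 1 of the 8 arrays was left out.

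CFLAR gave different answers at its 4 probes, which the files list under 3 transcripts. The brightest, A_23_P156807, gave 1.86 and 1.92 with simvastatin and 1.94 and 1.90 with L-778123 in OVSAHO, a log2 fold change of -0.03 ± 0.078 (adjusted p = 0.799). In KURAMOCHI it gave 1.54 and 1.70 against 1.87 and 1.96, a log2 fold change of -0.30 ± 0.078 (adjusted p = 0.0366). That value did not pass in 7 of the 8 fits that left out 1 array, nor with the KURAMOCHI groups alone (adjusted p = 0.0935) or with Tukey's test (adjusted p = 0.18). The dimmest, A_24_P120115, gave -1.47 and -1.72 with simvastatin and -2.72 and -2.67 with L-778123 in OVSAHO, so that simvastatin was 2.14-fold higher there (log2 fold change 1.1 ± 0.089, adjusted p = 0.000366). With normexp and quantile normalization that log2 fold change was 0.64. In KURAMOCHI it gave -0.59 and -0.57 against -0.92 and -0.90, a log2 fold change of 0.33 ± 0.089 (adjusted p = 0.0402). The KURAMOCHI value did not pass in 6 of the 8 fits that left out 1 array, with an adjusted p up to 0.138.

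The remaining CFLAR probes followed the dimmest in OVSAHO. A_22_P00003932 gave -1.66 and -1.95 with simvastatin and -2.81 and -2.56 with L-778123, and A_23_P209394 gave 0.31 and 0.39 against -0.15 and -0.36. Their log2 fold changes in OVSAHO were 0.88 ± 0.13 (adjusted p = 0.00272) and 0.60 ± 0.092 (adjusted p = 0.00344), and the former was 0.49 with normexp and quantile normalization. In KURAMOCHI these probes gave 0.26 (adjusted p = 0.17) and 0.02 (adjusted p = 0.897). The difference between the lines passed at A_24_P120115, at 0.77 ± 0.13 (adjusted p = 0.0111), and at A_23_P209394, at 0.58 ± 0.13 (adjusted p = 0.0276). At A_23_P209394 it was lost in 7 of the 8 fits that left out 1 array (adjusted p up to 0.0865), and at A_24_P120115 in none, where it was 0.37 with normexp and quantile normalization. It did not pass at A_22_P00003932 (0.62 ± 0.18, adjusted p = 0.0579) or at the brightest probe (0.27 ± 0.11, adjusted p = 0.141). Thus 3 of the 4 probes were higher with simvastatin in OVSAHO and the representative one was not. In the RefSeq annotation CFLAR, CASP10 and CASP8 are neighbors, in that order.

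**Figure D3:**
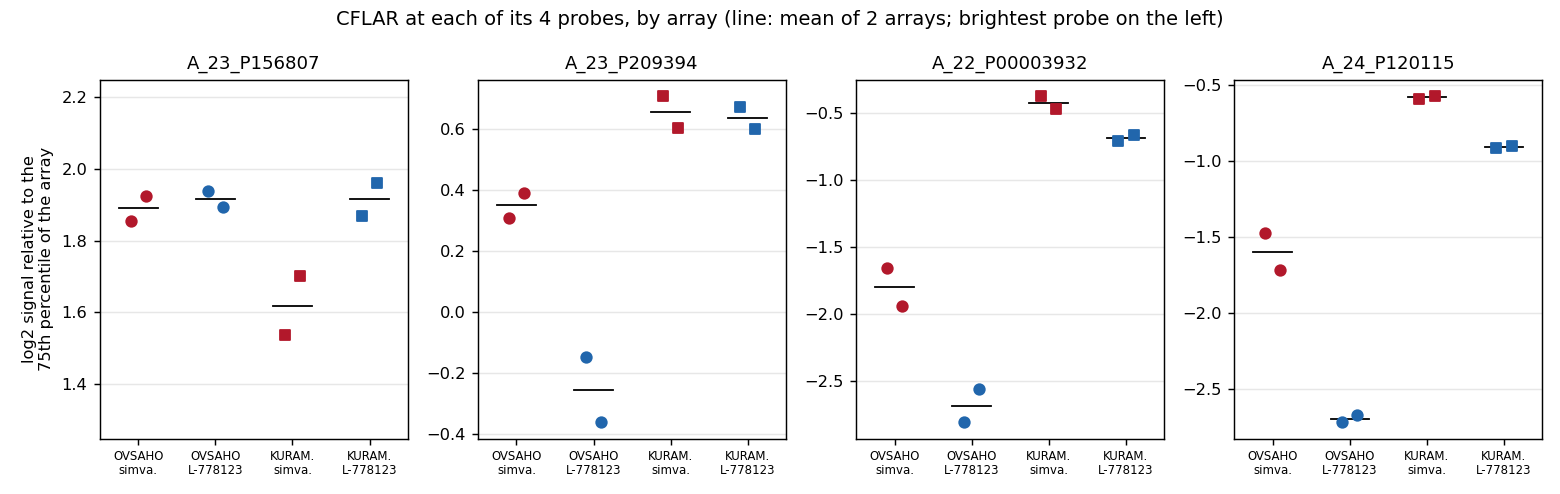
Log2 signal relative to the 75th percentile of the array (vertical axis, its own range in each panel) at the 4 CFLAR probes, from the brightest on the left to the dimmest on the right. Each point is 1 array and the line is the mean of 2 arrays, with OVSAHO as circles, KURAMOCHI as squares, simvastatin in red and L-778123 in blue. In OVSAHO simvastatin sits above L-778123 at the 3 probes on the right and overlaps it at the brightest, where KURAMOCHI with simvastatin is lowest.

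The death ligands included the largest drug contrast among the genes of the wider pathway. TNFSF10, which encodes TRAIL, the ligand of TNFRSF10A and TNFRSF10B, gave 4.53 and 4.49 with simvastatin and 0.38 and 0.47 with L-778123 in OVSAHO. In KURAMOCHI it gave 1.81 and 1.79 with simvastatin and -0.57 and -0.66 with L-778123. It was 16.9-fold higher with simvastatin in OVSAHO (log2 fold change 4.08 ± 0.062, adjusted p = 1.28e-05) and 5.32-fold higher in KURAMOCHI (2.41 ± 0.062, adjusted p = 8.26e-05), and the difference between the lines was 1.67 ± 0.088 (adjusted p = 0.000436). A second TNFSF10 probe that was well above background on 8 arrays gave 4.32 and 2.71, and the dimmest was above background on the 2 OVSAHO simvastatin arrays alone. TNF was lower with simvastatin in OVSAHO (log2 fold change -0.88, adjusted p = 0.00336) and in KURAMOCHI (-0.95, adjusted p = 0.00466), where it was well above background on 1 of the 2 simvastatin arrays. FASLG, LTA and TNFSF15 did not pass the filter on background, so 2 of the 5 ligands were tested.

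Of the other death and decoy receptors, 8 of 9 were tested, and 3 were higher and 3 lower with simvastatin in OVSAHO, against 4 higher and 1 lower in KURAMOCHI. Thus 6 of 8 tested passed in OVSAHO, where 53.9% of all genes did, and 62.5% in KURAMOCHI, where 35.4% did. TNFRSF1A, the main TNF receptor, was 2.18-fold higher in OVSAHO (adjusted p = 0.000415) and 1.52-fold higher in KURAMOCHI (adjusted p = 0.00707). TNFRSF25, also DR3, was 2.58-fold higher in OVSAHO (adjusted p = 4.53e-05) and 1.24-fold higher in KURAMOCHI (adjusted p = 0.0107). TNFRSF11B, which encodes osteoprotegerin, a soluble decoy that can bind TRAIL, went in opposite directions. It gave 0.88 on both simvastatin arrays against 1.63 and 1.53 in OVSAHO, and 0.95 and 0.99 against -0.27 and -0.22 in KURAMOCHI. Its log2 fold change was -0.70 ± 0.062 in OVSAHO (adjusted p = 0.000484) and 1.21 ± 0.062 in KURAMOCHI (adjusted p = 0.000254), and the difference of -1.91 ± 0.087 passed (adjusted p = 0.000317). NGFR was higher in both lines, though well above background on 1 of the 2 KURAMOCHI L-778123 arrays, and TNFRSF21, also DR6, was lower in both, while TNFRSF6B, a decoy for FAS ligand, was lower in OVSAHO (-0.86, adjusted p = 0.0046). The median log2 fold change of these receptors was 0.11 in OVSAHO and 0.21 in KURAMOCHI.

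The remaining caspases moved little, and 33.3% of them passed in OVSAHO and 16.7% in KURAMOCHI, beside 53.9% and 35.4% of all genes. Of 6 tested, CASP4 was higher and CASP1 lower with simvastatin in OVSAHO (0.24 and -0.51, adjusted p = 0.0321 and 0.00352), and CASP1 was lower in KURAMOCHI (-0.33, adjusted p = 0.0268). CASP10, the close relative of CASP8, had -0.15 in OVSAHO (adjusted p = 0.437) and -0.01 in KURAMOCHI (adjusted p = 0.958). The median of the 6 was -0.01 in OVSAHO and -0.02 in KURAMOCHI. CASP12 and CASP14 were well above background on none of the arrays.

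Among 15 tested adaptors and kinases, 6 were higher and 3 lower with simvastatin in OVSAHO, and 2 were higher and 2 lower in KURAMOCHI, with medians of 0.03 and -0.15. These are 60.0% and 26.7% of those tested, beside the 53.9% and 35.4% of all genes. FADD, the adaptor between the receptors and CASP8, gave -0.06 in OVSAHO (adjusted p = 0.335) and -0.19 in KURAMOCHI (adjusted p = 0.036), a call lost with quantile normalization, the authors' table and normexp. TRADD, the adaptor of TNFRSF1A, was higher in OVSAHO (0.92, adjusted p = 0.000297) and gave -0.14 in KURAMOCHI, and the difference passed (adjusted p = 0.00204). PIDD1, the scaffold for CASP2, was lower in OVSAHO (-0.55, adjusted p = 0.00156). BID, which CASP8 cuts to carry the signal to mitochondria, gave -0.20 in OVSAHO (adjusted p = 0.0635) and -0.15 in KURAMOCHI (adjusted p = 0.16).

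In the mitochondrial arm, CYCS, which encodes cytochrome c, was 2.24-fold lower with simvastatin in OVSAHO (adjusted p = 6.03e-05) and 1.53-fold lower in KURAMOCHI (adjusted p = 0.00101). Of the 6 genes of this list, 3 were higher in OVSAHO, namely DIABLO (0.81), AIFM1 (0.54) and HTRA2 (0.23), and HTRA2 was the 1 higher in KURAMOCHI (0.27). APAF1, the partner of CASP9, gave 0.05 in OVSAHO (adjusted p = 0.765) and was lower in KURAMOCHI (-0.49, adjusted p = 0.0298), a call lost with normexp. Of 7 inhibitors of apoptosis, BIRC5, which encodes survivin, was 2.19-fold lower in OVSAHO (adjusted p = 0.0001) and 1.82-fold lower in KURAMOCHI (adjusted p = 0.000586). XIAP, an inhibitor of CASP9, was 1.19-fold higher in OVSAHO (adjusted p = 0.0201) and gave 0.16 in KURAMOCHI (adjusted p = 0.097), while a second XIAP probe passed as higher in both lines (0.47 and 0.28, adjusted p = 0.00194 and 0.0198). The medians of the mitochondrial list were 0.14 and 0.02, and those of the inhibitors 0.24 and -0.05, in OVSAHO and KURAMOCHI. The mitochondrial list passed in 66.7% of its genes and in 3 of 6, and the inhibitors in 42.9% and 28.6%, beside 53.9% and 35.4% of all genes.

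Among 12 proteins that caspases cut, 2 were higher and 3 lower with simvastatin in OVSAHO, and 1 was higher and 4 lower in KURAMOCHI, with medians of -0.08 and 0.04. Thus 41.7% passed in each line, against 53.9% and 35.4% of all genes. None of them passed at 2-fold in either line. LMNB1, which encodes lamin B1, was lower in both lines (-0.98 and -0.63, adjusted p = 0.000665 and 0.006). LMNA, which encodes lamin A and C, was higher in OVSAHO and lower in KURAMOCHI (0.36 and -0.48, adjusted p = 0.00315 and 0.00229), and the difference passed (adjusted p = 0.00178).

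The 13 transcription factors listed as regulators of these genes had a median of 0.53 in OVSAHO, with 8 higher and 1 lower. In KURAMOCHI the median was 0.10, with 4 higher and 2 lower. The shares that passed were 69.2% and 46.2%, where those of all genes were 53.9% and 35.4%. DDIT3 encodes CHOP, a stress factor known to drive TNFRSF10B. It was 3.49-fold higher with simvastatin in OVSAHO (adjusted p = 3.36e-05) and 1.75-fold higher in KURAMOCHI (adjusted p = 0.000813). TNFRSF10B showed no passing difference between the drugs, and a link between these genes was not tested. JUN, a subunit of AP-1, was 2.25-fold higher in OVSAHO (adjusted p = 8.9e-05) and 1.21-fold lower in KURAMOCHI (adjusted p = 0.0217). E2F1 was 4.30-fold lower in OVSAHO (adjusted p = 2.04e-05) and 2.50-fold lower in KURAMOCHI (adjusted p = 0.000189).

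**Figure D4:**
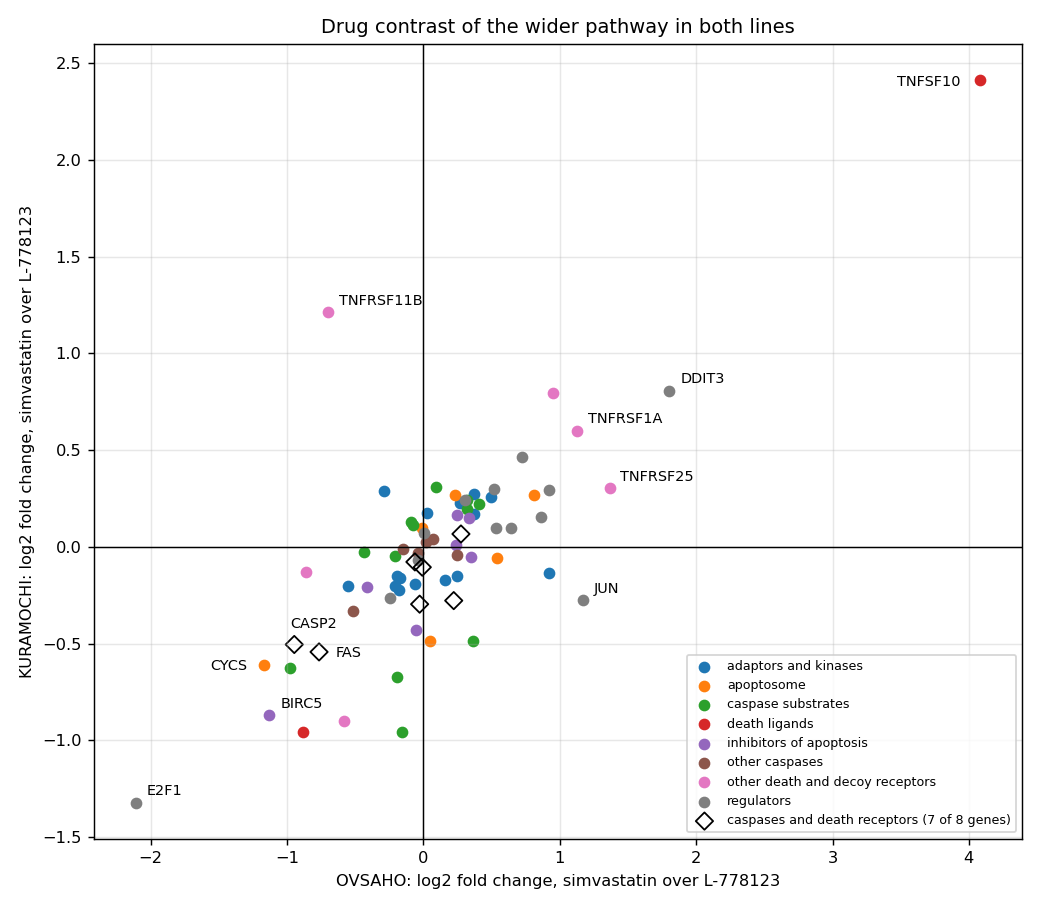
Log2 fold change of simvastatin over L-778123 in OVSAHO (horizontal axis) and in KURAMOCHI (vertical axis) for 67 genes of the wider pathway, colored by list, and for 7 of the 8 caspases and death receptors (open diamonds). Each point is the fit over 2 arrays a group at 1 probe, and genes not well above background in 1 of the lines are left out. TNFSF10 lies far to the upper right, E2F1 to the lower left with CASP2 and FAS nearer the center, and TNFRSF11B lies to the upper left.

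Averaged over the drugs, 7 of the 8 genes differed between OVSAHO and KURAMOCHI at an adjusted p under 0.05, TNFRSF10B higher in OVSAHO and 6 lower there, where 82.8% of all genes tested passed, 42.4% higher and 40.4% lower. Of the 8 genes 3, namely CASP8, CASP9 and TNFRSF10A, were also at least 2-fold apart, against 34.7% of all genes. TNFRSF10A was at background in OVSAHO and was tested through KURAMOCHI alone, so its fitted difference was favored by the filter. Without it, 1 of 7 genes was higher and 5 were lower in OVSAHO, 2 of them at least 2-fold. With simvastatin 7 of the 8 genes passed, where 77.1% of genes did, and with L-778123 6 passed, where 75.4% did. Leaving out TNFRSF10A, 85.7% of the other 7 genes passed with simvastatin and 71.4% with L-778123. These shares are near those of all genes.

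TNFRSF10B had the levels 3.57 to 3.63 on the OVSAHO arrays and 2.53 to 2.71 on the KURAMOCHI arrays. It was 1.98-fold higher in OVSAHO averaged over the drugs (log2 fold change 0.99 ± 0.044, adjusted p = 5.04e-06), and neither pair of drug groups in a line was apart beyond the spread. TNFRSF10A went the other way. Its probe was not well above background on any OVSAHO array and entered the test through the KURAMOCHI arrays alone. With the main scaling it was at least 3.22-fold lower in OVSAHO with simvastatin and at least 2.91-fold lower with L-778123. No p-value is given for these bounds, since the fit used OVSAHO signals at background. These bounds set the KURAMOCHI mean against the lowest signal that counted as well above background on each OVSAHO array. With normexp and quantile normalization the fitted log2 differences were -0.75 and -0.64, smaller than these bounds. TNFRSF10B was thus higher in OVSAHO, while TNFRSF10A was well above background in KURAMOCHI alone.

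CASP8 was 2.65-fold lower in OVSAHO averaged over the drugs (log2 fold change -1.41 ± 0.06, adjusted p = 4.23e-06). Its OVSAHO arrays ran from -1.18 to -1.07 and its KURAMOCHI arrays from 0.15 to 0.36. CASP9 was 2.31-fold lower in OVSAHO (-1.21 ± 0.038, adjusted p = 1.38e-06), with arrays from 1.64 to 1.94 against 2.92 to 3.03. For both genes the 4 OVSAHO arrays lay below the 4 KURAMOCHI arrays with either drug, and the difference was of similar size with simvastatin (-1.40 and -1.10) and with L-778123 (-1.42 and -1.31).

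FAS, CASP2 and CASP6 differed less between the lines. The FAS values that follow are those of its brightest probe, unless another is named. FAS was lower in OVSAHO with simvastatin (-0.58, adjusted p = 0.00123) and with L-778123 (-0.36, adjusted p = 0.00979), although the latter did not pass without the first KURAMOCHI L-778123 array (adjusted p = 0.0536). Its 4 groups ran from KURAMOCHI with L-778123 through OVSAHO with L-778123 and KURAMOCHI with simvastatin to OVSAHO with simvastatin. The middle pair did not differ beyond their spread (adjusted p = 0.102). The dimmest FAS probe kept this order, but there the middle pair differed (adjusted p = 0.0243). At that probe the line difference passed with simvastatin (-0.54, adjusted p = 0.0135) and not with L-778123 (-0.18, adjusted p = 0.281). The remaining FAS probe passed with both drugs (-0.77 and -0.34, adjusted p = 0.00044 and 0.0151). At its representative probe CASP2 followed the same order, and there the upper pair did not differ (adjusted p = 0.263). There CASP2 was lower in OVSAHO with simvastatin (-0.56, adjusted p = 0.00162), while the difference with L-778123 was -0.12. At the dimmer CASP2 probe the line difference passed in limma neither with simvastatin (-0.15, adjusted p = 0.364) nor with L-778123 (-0.26, adjusted p = 0.128). CASP6 was lower in OVSAHO with L-778123 (-0.54, adjusted p = 0.00324) and gave -0.04 with simvastatin (adjusted p = 0.744).

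At CFLAR the probes again disagreed. The brightest was 0.14 higher in OVSAHO averaged over the drugs and did not pass (adjusted p = 0.0644). The other 3 were lower in OVSAHO, by -0.60 at A_23_P209394 (adjusted p = 0.000272), -1.69 at A_22_P00003932 (adjusted p = 1.02e-05) and -1.40 at A_24_P120115 (adjusted p = 5.31e-06). At those 3 probes the order of the groups was KURAMOCHI with simvastatin, KURAMOCHI with L-778123, OVSAHO with simvastatin and OVSAHO with L-778123. The lowest of these steps, between the drugs in OVSAHO, passed at each of the 3 probes. The highest, between the drugs in KURAMOCHI, passed in limma at A_24_P120115 alone (adjusted p = 0.0402). It did not pass at A_23_P209394 (adjusted p = 0.897) or A_22_P00003932 (adjusted p = 0.17). The ligand TNFSF10 was higher in OVSAHO with both drugs, at 4.53 and 4.49 against 1.81 and 1.79 with simvastatin and 0.38 and 0.47 against -0.57 and -0.66 with L-778123.

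**Figure D5:**
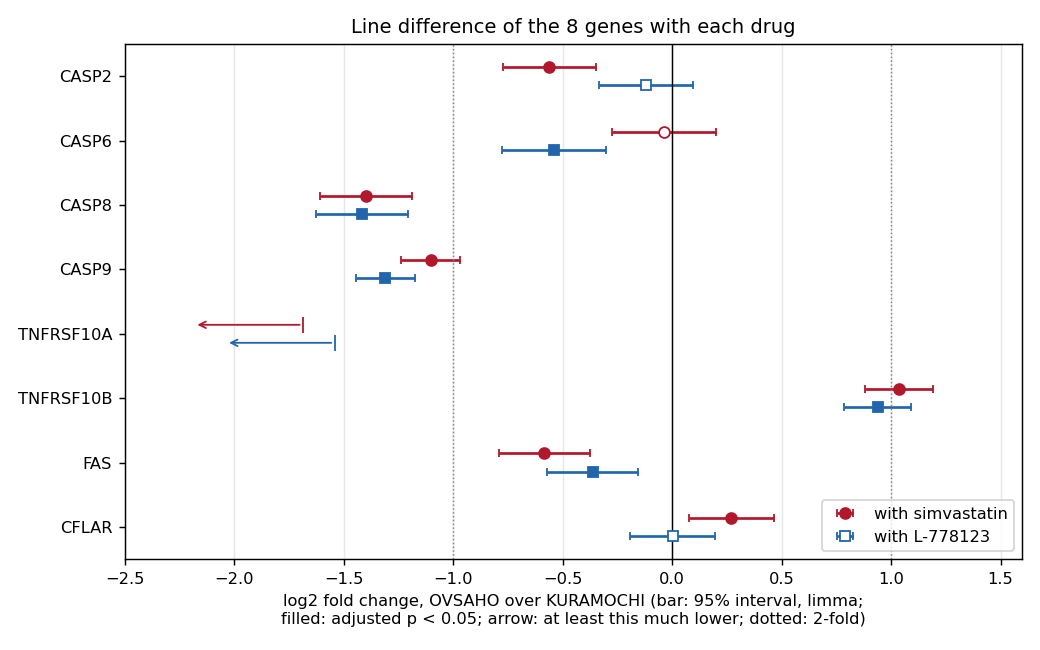
Log2 fold change of OVSAHO over KURAMOCHI (horizontal axis) for the 8 genes at the representative probe, with simvastatin (red circles) and with L-778123 (blue squares). Bars are 95% intervals from limma, filled symbols have an adjusted p under 0.05, dotted lines mark 2-fold and arrows start at the bound for TNFRSF10A, which was not well above background in OVSAHO. CASP8, CASP9 and TNFRSF10A lie below 0 and TNFRSF10B above 0 with both drugs.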

How the data were processed

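RNA of the 4 groups was hybridized to 8 one-color SurePrint G3 arrays, and groups follow the sample labels. The authors scanned the arrays with Feature Extraction 11.5.1.1, and the deposited files hold, per spot, a processed intensity corrected for background but not scaled between arrays, with flags for background, saturation and outliers. The authors' own table of processed intensity has the same 75th percentile, 384, on every array and served as an alternative. The probe coordinates in the files belong to an earlier build than the RefSeq table used here, which gave names and promoter windows only.

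Control spots and 58 to 99 outlier spots an array were left out, spots of a probe were averaged, and the log2 values were shifted so that the 75th percentile over an array's probes was 0. A probe was tested if some group had it well above background on each of its arrays, which left 33753 of 58162 probes and 16942 genes. A linear model of the 4 group means with pooled variance (lmFit with eBayes, limma 3.58.1, R 4.3.3) gave log2 fold changes, and Benjamini-Hochberg adjustment ran over all probes tested. A gene passed at an adjusted p under 0.05. The number of arrays limits the precision. The methods' two-way analysis of variance names its categories as cell and siRNA, which were taken here as line and drug. The plots used Python 3.11.15 and matplotlib 3.10.9, and the fit was tested on simulated data.

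The 8 genes, the lists of the wider pathway and the tests were chosen with earlier results of these data known. Named beyond the 8 genes are up to 4 genes a list with the largest contrast among those at 2-fold or more, and a set of genes named whatever their values, of which CASP10, FADD, BID, APAF1, TNFSF10, XIAP and TNFRSF1A are given and the others are not reported here. TNF, NGFR, TNFRSF21, TNFRSF6B, CASP1, CASP4, TRADD, PIDD1, DIABLO, AIFM1, HTRA2, LMNB1 and LMNA were added after their values were seen. A rule to name genes with a pattern like that of a member at 2-fold or more applied to none. Alternatives were other filters, scalings, background correction, thresholds and probe choices, the authors' table, the groups alone, the replicate number as a block and each array left out, and, added after seeing the data, the 75th percentile over spots.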

Additional observations from a re-analysis of the deposited data

Results flagged for a closer look

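The drug contrast differed between the lines at 3 probes of these genes, by a test of the difference itself in limma. For CASP6 the contrast in OVSAHO exceeded that in KURAMOCHI by 0.50 on the log2 scale (adjusted p = 0.0493). For CFLAR it did so by 0.58 at A_23_P209394 (adjusted p = 0.0276) and by 0.77 at A_24_P120115 (adjusted p = 0.0111). Over all genes tested 27.4% passed this test. Leaving out any 1 array gave CASP6 values of 0.41 to 0.59, none of which passed, and values of 0.48 to 0.69 at A_23_P209394, of which 7 of 8 did not pass.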

How the results depend on the processing

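In OVSAHO, 3 of the 8 genes passed between the drugs, and CASP2, FAS and CASP9 also did without any 1 array. At 2-fold or more 0 did, as did 0 in KURAMOCHI at 1.5-fold or 2-fold or with the methods' two-way analysis of variance and Tukey's test (2 at an unadjusted p under 0.05), where the main count was 3, and 1 to 3 passed without any 1 array, 1 of them without the first L-778123 array. The difference of the contrast between the lines, passed by 1 gene, was passed by 2 with quantile normalization, the percentile over bright probes, normexp, probes above background on all 8 arrays, the authors' table or the replicate block, by 0 at an adjusted p under 0.01, at 1.5-fold or 2-fold or with no filter on dim probes, and by 0 to 1 without any 1 array. The second gene was CASP2, at -0.44 with an adjusted p of 0.042 under the replicate block. With the median over its probes the CASP2 difference was -0.16. Counting TNFRSF10A, 7 genes passed between the lines averaged over the drugs, 4 at 1.5-fold and 3 at 2-fold. With simvastatin 7 became 4 at both thresholds, and with L-778123 6 became 3 at 2-fold.

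The direction turned for CFLAR with the median over its probes. Between the drugs it then passed in limma in OVSAHO, at 0.82 (adjusted p = 0.000327), and not in KURAMOCHI, at 0.14 (adjusted p = 0.153). Between the lines CFLAR then passed at -1.08 averaged (adjusted p = 4.15e-06), -0.74 with simvastatin (adjusted p = 0.000132) and -1.42 with L-778123 (adjusted p = 1.02e-05). Its line difference with L-778123 was -0.0042 with the percentile over bright probes. TNFRSF10B between the drugs in OVSAHO turned to 0.033 with quantile normalization or the authors' table, 0.0084 with bright probes and 0.0028 with the percentile over spots. CASP6 between the lines with simvastatin turned to 0.0087 with normexp. Without any 1 array, values near 0 also turned, with ranges of -0.0444 to 0.0482 for CFLAR between the lines with L-778123, -0.0611 to 0.0072 for CFLAR between the drugs in OVSAHO, -0.0338 to 0.0188 for TNFRSF10B there, -0.13 to 0.053 for CASP6 between the lines with simvastatin, -0.0931 to 0.12 for CASP8 in the difference of contrasts and -0.19 to 0.031 in KURAMOCHI. At other probes the ranges were -0.29 to 0.073 for the dimmer CASP2 probe in OVSAHO, -0.0648 to 0.297 for its difference of contrasts and -0.0352 to 0.071 for CFLAR A_23_P209394 in KURAMOCHI. The cause was not tested.

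Over all genes tested, 9137 passed between the drugs in OVSAHO, 4162 at 1.5-fold, 1958 at 2-fold and 5949 with Tukey's test. In KURAMOCHI 6004 passed, 2305 at 1.5-fold, 908 at 2-fold, 3012 at an adjusted p under 0.01, 3494 with no filter, 2886 with Tukey's test and as few as 3616 without 1 array. The difference of contrasts was passed by 4640 genes, 2708 at 1.5-fold, 1281 at 2-fold, 1929 at an adjusted p under 0.01, 2254 with no filter and as few as 2937 without 1 array. Between the lines 14035 genes passed averaged over the drugs (9138 at 1.5-fold, 5884 at 2-fold), 13058 with simvastatin (6127 at 2-fold) and 12769 with L-778123 (5778 at 2-fold). Of the wider pathway's 40 passing genes in OVSAHO and 28 in KURAMOCHI, other scalings and normexp lost 0 to 3 and turned none. Equal replicate numbers did not pair the arrays, with correlations of replicate differences from 0.0008 to 0.056, and the replicate block raised the adjusted p of the KURAMOCHI contrast at CFLAR A_24_P120115 to 0.0629.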
